A study of Mus musculus with 6 samples.

Results

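Mesothelial marker genes are genes used to recognise the mesothelium, the flat epithelium that covers the outer surface of the uterus. The set held 8 genes, Upk3b, Upk1b, Msln, Lrrn4, Wt1, Muc16, Nkain4 and Gpm6a, and was chosen by gene symbol from the 20637 genes of the deposited tables. All 8 were listed in every table. Poly(A) RNA of whole uteri had been sequenced from female mice killed on postnatal day 21. There were 3 libraries from Nat10 f/f mice, which carry the floxed gene and served as controls, and 3 from Nat10 d/d mice, in which Nat10 was deleted. The Nat10 protein is the enzyme that places the acetylcytidine mark on RNA. The labels give neither the Cre line, the cells in which it acts nor the deleted exons, and do not say whether each library came from 1 animal, so p-values measure the spread between these libraries. The comparison asked how the uterine transcriptome differs when Nat10 has been deleted.

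Mesothelium lines the body cavities and the organs in them, keeps their surfaces slippery and carries a surface coat of glycoproteins. In the uterus it forms the thin outermost layer, the perimetrium, outside the smooth muscle of the myometrium, so its RNA is a small part of RNA from a whole uterus. Several of its markers are also made elsewhere: Wt1 in uterine stroma and muscle, Msln and Muc16 in other epithelia, Upk1b in the bladder lining, and Gpm6a in neurons. In RNA from whole tissue, fewer cells of a type and less RNA per cell cannot be told apart.

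The members lie on 6 chromosomes of the mouse genome (build GRCm38, the mm10 of the submitters' processing notes, with gene models of GENCODE M21), and all are protein-coding. Upk3b spans chr5:136038496-136046487 on the plus strand, Lrrn4 chr2:132868305-132880891 on the minus strand and Msln chr17:25748613-25754378 on the minus strand. Wt1 spans chr2:105126529-105173616 on the plus strand, Nkain4 chr2:180934772-180954699 on the minus strand and Upk1b chr16:38773184-38800328 on the minus strand. Gpm6a spans chr8:54954843-55060871 on the plus strand and Muc16 chr9:18495455-18674530 on the minus strand. Nkain4 shares 55 exonic bases, or 4.44% of its exonic length, with the antisense gene Gm14341, and since the counting is not stated to use strand, reads there cannot be assigned. No other member shares exonic bases with another gene of that annotation.

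Promoters are shown for Upk3b and Lrrn4, 2 of the members with lower values in deleted uteri and with promoter sequences at hand, so that the start regions of members that varied together can be read side by side. Each line gives the 250 bases before the RefSeq start (GRCm38.p6), 5′ to 3′ on the gene's own strand. They are chr5:136038246-136038495 for Upk3b and chr2:132880863-132881112 for Lrrn4, whose last bases lie inside the first exon of the GENCODE model. Capitals mark matches to GGAATG or its reverse complement CATTCC, the core read by TEAD transcription factors.
Upk3b: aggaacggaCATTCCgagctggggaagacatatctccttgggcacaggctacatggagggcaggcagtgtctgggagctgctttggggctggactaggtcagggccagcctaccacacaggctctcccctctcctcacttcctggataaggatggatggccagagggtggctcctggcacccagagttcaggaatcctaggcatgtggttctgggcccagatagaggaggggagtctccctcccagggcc
Lrrn4: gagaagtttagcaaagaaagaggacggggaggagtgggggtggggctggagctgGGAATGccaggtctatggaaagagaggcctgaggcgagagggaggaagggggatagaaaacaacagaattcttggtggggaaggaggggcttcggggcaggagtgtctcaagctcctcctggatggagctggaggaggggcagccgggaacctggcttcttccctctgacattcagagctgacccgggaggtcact

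Both stretches held 1 TEAD core, which 12.6% of 27025 RefSeq promoters of this length held on either strand. The promoter of Muc16, whose values varied with those of Upk3b, held 0, and 1 of the 2 promoters of Gpm6a, whose values did not, held 1. That promoter, chr8:54779184-54779433, lies well before the Gpm6a span given above. The one next to the start of that span, chr8:54954478-54954727, held 0. Neither the Upk3b nor the Lrrn4 stretch held GCGTGGG, a core read by WT1 and EGR zinc fingers (4.2% of promoters), nor the GC box GGGCGG read by SP1 (32.9%). The motifs were searched on both strands and do not overlap each other. Promoter sequences of 4 members were at hand, and those of Upk1b, Msln, Wt1 and Nkain4 were not used here. GC content was 60.8% for Upk3b and 59.2% for Lrrn4, against a median of 52% over all promoters.

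Library quality is given first. Nat10 itself was listed at 13.2, 16.4 and 9.95 FPKM in controls 1, 2 and 3 and at 5.57, 5.23 and 5.53 in deleted libraries 1, 2 and 3, where FPKM is the fragment count scaled to transcript length and library size. The groups did not overlap. On the log2 scale the deleted mean differed by -1.11 (SE 0.17), with an adjusted p of 0.669 in limma. Values summed to between 500764 and 549263 per library, and read depth is unknown. Deleted replicate 2 stood apart in 6 proliferation genes (Mki67, Top2a, Ccnb1, Cdk1, Birc5 and Ccna2), whose summed level was 152 FPKM there, 14.2 and 7.66 in the other deleted libraries and 15.6 to 61 in controls.

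In the control uterus the members spanned a wide range of levels. Wt1, a zinc finger transcription factor, was the most abundant member at 37.5 ± 2.47 FPKM (SD, n = 3), and Upk3b, a uroplakin of the cell surface, followed at 20.4 ± 4.27. Gpm6a, a membrane protein of the proteolipid family, was at 7.04 ± 0.829, and Nkain4, a membrane protein that interacts with the sodium pump, at 6.61 ± 0.405 (SD, n = 3). Upk1b, a tetraspanin uroplakin, was at 5.33 ± 1.38, and Msln, mesothelin, a surface glycoprotein that binds the mucin Muc16, at 5.24 ± 1.09 (SD, n = 3). Lrrn4, a membrane protein with leucine-rich repeats, was at 3.14 ± 0.568, and Muc16, the large mucin known as CA125, at 0.221 ± 0.0555 (SD, n = 3). The ranges of neighbours in this order overlapped from Gpm6a to Nkain4, from Nkain4 to Upk1b and from Upk1b to Msln. They did not overlap between Wt1 and Upk3b, Upk3b and Gpm6a, Msln and Lrrn4, or Lrrn4 and Muc16.

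Among all genes with a value above 0 in a library, Wt1 lay at percentiles 84 to 87.9 and Upk3b at percentiles 61.3 to 75.7. Lrrn4 lay at percentiles 20.2 to 31.8 and Muc16 at percentiles 7.21 to 10.6. All 8 markers were above 0 in all 6 libraries, at levels from well above to well below the middle of the transcriptome. Muc16 did not reach the minimum of 1 FPKM in at least 3 libraries that was set for testing, and the other 7 members were above 1 FPKM in every library.

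No member was called as different between Nat10-deleted and control uteri (limma, adjusted p under 0.05), and none of the 12640 genes tested was, so percent called over all genes was 0%. Nat10, the deleted gene itself, was not called either (limma adjusted p 0.669), so a gene that was not called may still differ. The counts depend on the weight of single libraries: without deleted replicate 2, 12 genes and no member were called, and with array quality weights, which give less weight to libraries that vary more, 316 genes (2.5% of those tested) and 1 member, Lrrn4, were called. With unadjusted p-values, 2 members (Lrrn4 and Msln, both lower) were under 0.05. Over all genes 630 were, or 4.98% of those tested, and 2.3% were so in the lower direction. This number was 352 to 1726 when 1 library was left out and 3730 with weights. Of the 7 tested members 4 had lower and 3 had higher mean log2 values in deleted uteri, where 43.4% of all tested genes were lower. The median log2 change was -0.26 over the 7 members and 0.03 over all tested genes. Without deleted replicate 2 the members' median was -0.08, and with array quality weights it was -0.15. In 2 members, Lrrn4 and Msln, every deleted library lay below every control. Over all tested genes 4.6% separated in this direction, and 6.12% in the other, where no member did.

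**Figure D1:**
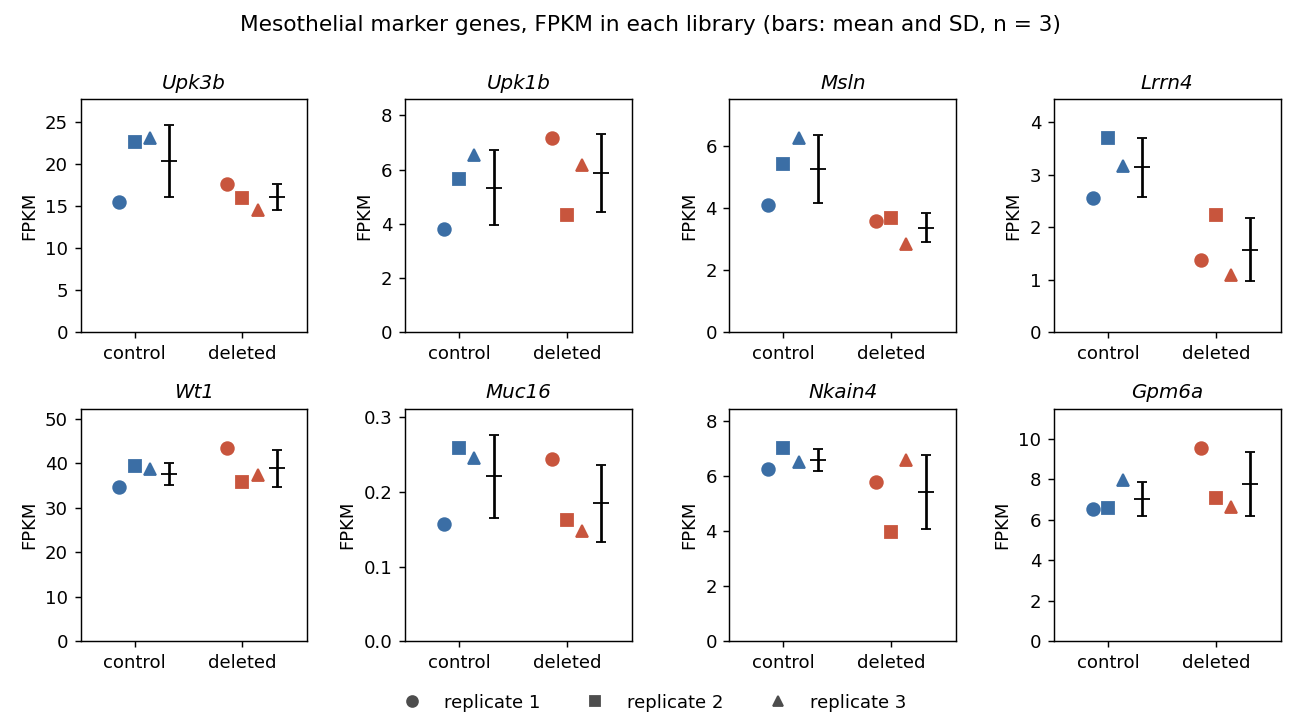
FPKM of the 8 marker genes in each library, with 1 panel per gene and axes that start at 0. Points are libraries, blue for controls and red for Nat10-deleted uteri, and the bars beside them are mean and SD (n = 3). For Lrrn4 and Msln all deleted points lie below all control points, while the groups overlap for the other 6 genes.

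Lrrn4 had the largest difference of the members. It was listed at 2.56, 3.7 and 3.17 FPKM in controls 1, 2 and 3 and at 1.38, 2.24 and 1.1 FPKM in deleted libraries 1, 2 and 3. The deleted libraries were all below the lowest control, with deleted replicate 2 the closest to it. The deleted mean of 1.57 ± 0.597 FPKM (SD, n = 3) was 50% of the control mean, and the log2 change was -0.70 (SE 0.21; 95% interval -1.19 to -0.22). It did not pass the test over all genes (limma adjusted p 0.922), and an exact two-sided permutation of the libraries gave p = 0.1, the smallest that 3 against 3 allow. With array quality weights the change was -0.75 and the limma adjusted p 0.0463 (range over the alternatives 0.0463 to 1), in a setting that called 2.5% of all tested genes.

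Msln was listed at 4.08, 5.41 and 6.24 FPKM in controls 1, 2 and 3 and at 3.57, 3.67 and 2.83 FPKM in deleted libraries 1, 2 and 3. The groups did not overlap, although control replicate 1 lay close to the 2 higher deleted libraries. The deleted mean of 3.36 ± 0.458 FPKM (SD, n = 3) was 64.1% of control. Its log2 change came to -0.51 (SE 0.17; 95% interval -0.91 to -0.11; limma adjusted p 0.922).

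Upk3b, a gene used mainly as a mesothelial marker outside the urinary tract, was listed at 15.5, 22.7 and 23.1 FPKM in controls 1, 2 and 3. In deleted libraries 1, 2 and 3 it was listed at 17.6, 16 and 14.5 FPKM. Control replicate 1 lay inside the deleted range, and the other two controls lay above it. The deleted mean was 78.6% of control and the log2 change -0.31 (SE 0.17; 95% interval -0.71 to 0.08; limma adjusted p 0.922). Without control replicate 1 the log2 change was -0.49 (limma adjusted p 0.999) and 3 members, Upk3b, Msln and Lrrn4, separated without overlap, where 6.95% of tested genes did so in that direction.

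Nkain4 was listed at 6.26, 7.05 and 6.51 FPKM in controls and at 5.8, 3.96 and 6.59 FPKM in deleted libraries 1, 2 and 3. Only deleted replicate 2, the library that stood apart in proliferation genes, was far below the controls, and deleted replicate 3 lay inside their range. The difference was -0.26 on the log2 scale (SE 0.17; adjusted p in limma 0.924), and -0.08 when deleted replicate 2 was left out. Without deleted replicate 3 it was -0.39 and the groups did not overlap, where 14.6% of tested genes separated in that direction. Whether the proliferation difference of that library has a part in this was not tested.

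Upk1b, Wt1 and Gpm6a had mean values slightly higher in deleted uteri, each with overlap between groups. Upk1b was listed at 3.82, 5.64 and 6.53 FPKM in controls and at 7.16, 4.33 and 6.17 FPKM in deleted libraries (log2 change 0.12, 95% interval -0.39 to 0.64). Wt1 was listed at 34.7, 39.3 and 38.6 FPKM in controls and at 43.5, 35.7 and 37.2 FPKM in deleted libraries (log2 change 0.04, 95% interval -0.23 to 0.32). For all 3 genes the highest value of the 6 libraries was in deleted replicate 1. Gpm6a was listed at 6.55, 6.57 and 7.99 FPKM in controls and at 9.58, 7.1 and 6.66 FPKM in deleted libraries (log2 change 0.12, 95% interval -0.25 to 0.49). Their limma adjusted p-values were 0.974, 0.986 and 0.956. Without deleted replicate 1 the log2 changes were -0.01, -0.04 and -0.02, and without control replicate 1 those of Upk1b and Wt1 were -0.06 and -0.01, so the direction of these 3 genes rests on single libraries. With array quality weights the changes of Upk1b, Wt1 and Gpm6a were larger, at 0.40, 0.19 and 0.35, and none was called. Without control replicate 3 every deleted value of Gpm6a lay above the controls, where 9.11% of tested genes did so. Muc16 was listed at 0.158, 0.26 and 0.246 FPKM in controls and at 0.244, 0.163 and 0.148 FPKM in deleted libraries, with overlap. An exact two-sided permutation gave p = 0.4, and limma without the filter on low values gave a log2 change of -0.04 (adjusted p 0.943).

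The members differed among themselves in how libraries were ordered. All 8 had their lowest control value in replicate 1, where 27.9% of all tested genes had theirs. The highest control value was in replicate 2 for 4 members and in replicate 3 for the other 4. Among deleted libraries the highest value was in replicate 1 for 5 members, in replicate 2 for 2 and in replicate 3 for 1, where 24%, 40.1% and 35.9% of all tested genes had theirs. Control replicate 1 also had the highest summed level of 5 blood genes, 5581 FPKM against 2629 and 851 in the other controls and 709 to 1723 in deleted libraries, with the globin genes Hbb-bs and Hbb-bt at 1594 and 828 FPKM. It had the highest summed level of 4 fat cell genes as well, 8.79 FPKM against 0.251 and 1.11 in the other controls and 0 to 2.95 in deleted libraries, with Adipoq and Plin1 at 4.71 and 1.24 FPKM. The part of blood or fat in the member values of that library was not tested.

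**Figure D2:**
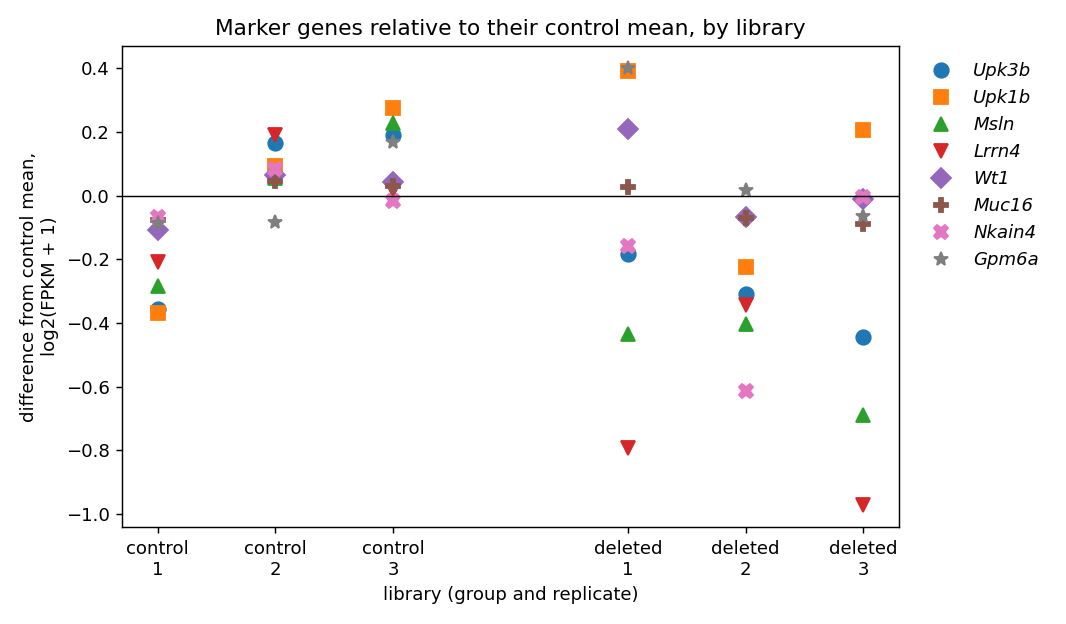
Difference of each marker gene from its control mean on the log2(FPKM + 1) scale (vertical axis) in each of the 6 libraries (horizontal axis), 1 symbol per gene. In control replicate 1 all 8 symbols lie below 0, and in deleted replicates 1 and 3 Lrrn4 lies lowest, at -0.79 and -0.97.

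Over the 6 libraries some members varied together. They were grouped after their values were seen, and the correlations are a description, since all values share the same libraries. Libraries of both groups were pooled, so a difference between the groups is part of each r. Pearson's r on log2 values was 0.92 between Upk3b and Msln, 0.90 between Msln and Lrrn4 and 0.75 between Upk3b and Lrrn4. It was 0.86 between Upk1b and Wt1, 0.80 between Wt1 and Gpm6a and 0.65 between Upk1b and Gpm6a. Between the 2 triples it ranged from -0.30, for Lrrn4 with Gpm6a, to 0.42, for Upk3b with Wt1. Muc16 had its highest r with Upk3b, 0.89, and Nkain4 with Upk1b, 0.40.

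Levels relative to Upk3b in the same library are unaffected by a scaling that multiplies all values of a library by 1 factor. Since Upk3b itself had a lower mean in deleted uteri, ratios to it are shifted upward there for all genes, and the shares of all genes below carry that shift. Msln was at 26.3%, 23.9% and 27% of Upk3b in controls 1, 2 and 3 and at 20.3%, 22.9% and 19.5% in deleted libraries 1, 2 and 3. All deleted values were below all controls, as were 0.111% of tested genes relative to Upk3b, against 4.6% on the FPKM values themselves. Gpm6a was at 42.3%, 29% and 34.6% of Upk3b in controls and at 54.4%, 44.3% and 45.9% in deleted libraries. These were all above the controls, as were 13.4% of tested genes relative to Upk3b, against 6.12% on the FPKM values themselves.

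Lrrn4 was at 16.5%, 16.3% and 13.7% of Upk3b in controls and at 7.81%, 14% and 7.56% in deleted libraries. Deleted replicate 2 lay inside the control range and the other 2 deleted libraries well below it. Upk1b was at 24.6%, 24.9% and 28.3% of Upk3b in controls and at 40.6%, 27% and 42.6% in deleted libraries, again with only deleted replicate 2 inside the control range. The ratios of Wt1, Nkain4 and Muc16 to Upk3b overlapped between groups.

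**Figure D3:**
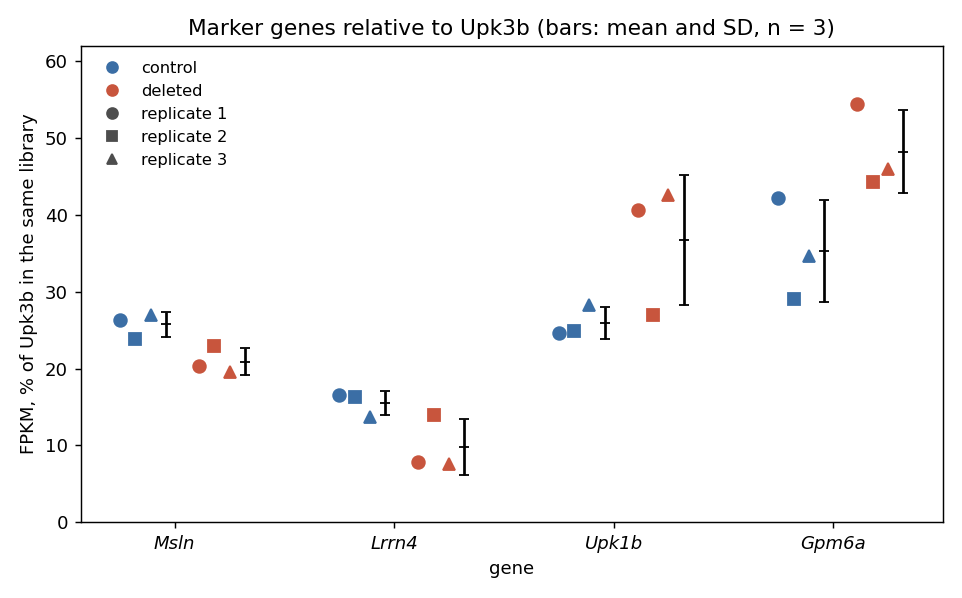
FPKM of Msln, Lrrn4, Upk1b and Gpm6a as a percentage of Upk3b in the same library (vertical axis), with controls in blue and Nat10-deleted uteri in red, the symbol giving the replicate number and bars the mean and SD (n = 3). The deleted points lie below the control points for Msln and above them for Gpm6a, and deleted replicate 2 lies among or near the controls for Lrrn4 and Upk1b.

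Another 13 genes known from mesothelium were examined as a wider list, of which 12 could be tested and none was called (limma). Calb2, calretinin, was at most 0.296 FPKM and was listed at 0 in 3 libraries. Of the 12, 8 were lower and 4 higher, with a median log2 change of -0.07, and 3 separated without overlap, all lower in deleted uteri, where 4.6% of all tested genes did so. Among these 3, Pkhd1l1 reached the 1 FPKM of the filter only in controls. Its separation in this direction was therefore fixed once it was tested and carries no weight. Rspo1, a secreted enhancer of Wnt signalling, was listed at 19, 20.6 and 24.6 FPKM in controls and at 16.3, 14.1 and 16.7 FPKM in deleted libraries (log2 change -0.42, SE 0.13, limma adjusted p 0.922). Aldh1a2, an enzyme of retinoic acid synthesis that uterine stroma also makes, was listed at 32.5, 28.7 and 28.8 FPKM in controls and at 24, 26.1 and 23.2 FPKM in deleted libraries (log2 change -0.29). These 2 genes were the ones of the list with an unadjusted p under 0.05.

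Pkhd1l1, a large membrane protein of the fibrocystin family, was listed at 1.53, 1.1 and 1.36 FPKM in controls and at 0.863, 0.528 and 0.907 FPKM in deleted libraries (log2 change -0.40). The mesothelial transcription factor gene Bnc1, basonuclin, had a control mean of 1.14 ± 0.332 FPKM and a deleted mean of 1.13 ± 0.275 (SD, n = 3), and Pdpn, podoplanin, at 13 ± 1.87 and 13.4 ± 1.57 (SD, n = 3). The summed level of the 13 genes was 160 to 182 FPKM in controls and 157 to 176 in deleted uteri, and that of the 8 markers was 73.6 to 92.4 and 73.2 to 88.8. The largest part of the first sum was Efemp1, at 54.1 to 66.2 FPKM in controls and 56.4 to 79.8 in deleted libraries. That of the second was Wt1, at 34.7 to 39.3 and 35.7 to 43.5 FPKM, so the sums say little about the lower genes.

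**Figure D4:**
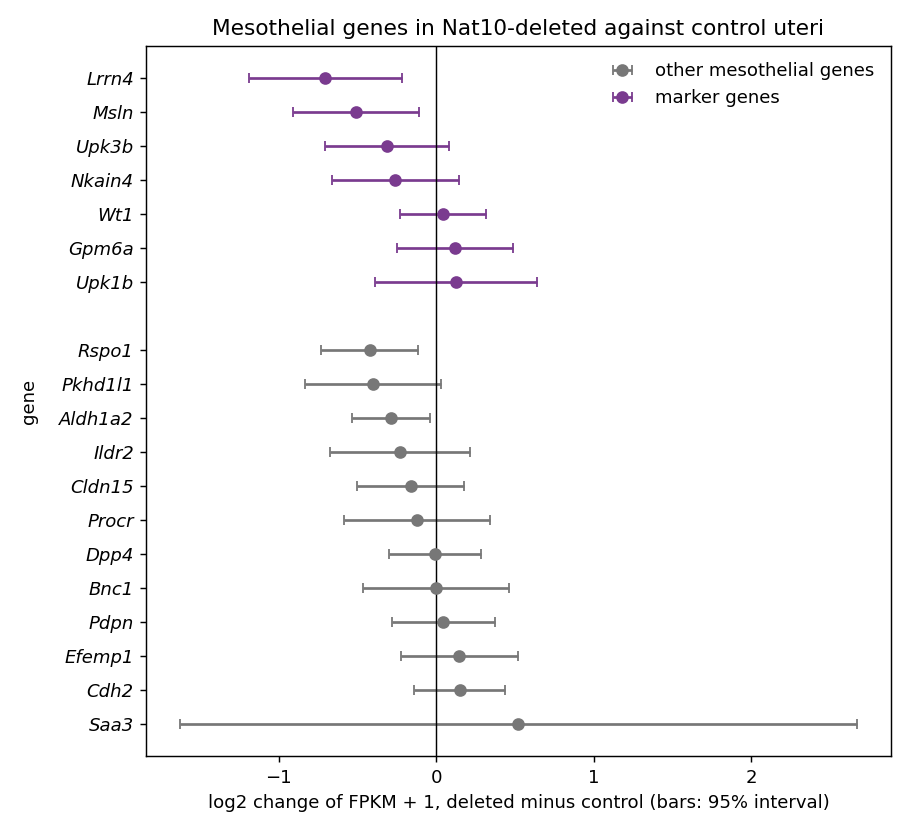
Log2 change of FPKM + 1, deleted minus control (horizontal axis), with 95% intervals from limma, for the 7 tested marker genes (purple) and 12 other mesothelial genes (grey), 1 row per gene. The intervals of Lrrn4, Msln, Rspo1 and Aldh1a2 lie below 0, and none of these genes passed adjustment over all genes.

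Genes that mesothelium shares with the uterine epithelium were examined next. Of 8 such genes 7 were tested, with 4 higher, 3 lower, none called by limma and a median log2 change of 0.05. Krt19, a keratin of simple epithelia, had a control mean of 177 ± 12.5 FPKM and a deleted mean of 176 ± 24.6 (SD, n = 3). Krt18, another such keratin, was at 139 ± 21.7 and 168 ± 46.3 FPKM (SD, n = 3). Among 14 relatives of the members by family, 10 were tested, with 6 higher, 4 lower, none called by limma and a median log2 change of 0.02. Upk3bl, named for its likeness to Upk3b, was listed at 8.43, 18.7 and 18.8 FPKM in controls and at 18.9, 9.85 and 21.2 FPKM in deleted libraries, with overlap. The 8 genes for partners and targets of WT1 (Basp1, Wtap, Wtip, Pawr, Ciao1, Amhr2, Podxl and Spry1) were 4 higher and 4 lower, none called by limma, and their median change was 0.01 on the log2 scale. Podxl (-0.28) was lower and Ciao1 (0.09) higher without overlap, where 4.6% and 6.12% of all tested genes separated in these directions.

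Markers of other cells were read beside these values. Defining genes of the bladder lining were low, with Upk2 at most 0.439 FPKM and Upk1a at most 1.84, and the 6 genes of that list summed to 3.58 to 6.97 FPKM in controls and 2.7 to 3.5 in deleted uteri. Krt5 was at 2.79, 0.761 and 0.572 FPKM in controls and 0.352 to 0.463 in deleted libraries, and Krt20 at 0.66 to 0.816 and 0 to 0.53. Both were lower without overlap but did not pass the filter for testing. Upk3a had a higher mean in deleted uteri, with overlap. The ovary genes Fshr and Cyp19a1 were listed at 0 in all 6 libraries and Amh was at most 0.683 FPKM, and the 6 ovary genes summed to 33.3 to 35.1 FPKM in controls and 23.5 to 33.8 in deleted uteri. Most of that sum was Foxl2, which the uterus also makes and which was at 27.9 ± 1.1 FPKM in controls and 21.4 ± 3.04 in deleted libraries (SD, n = 3), lower without overlap. Over all tested genes 4.6% separated in that direction. Inha, an inhibin subunit, was at 5 to 7.04 FPKM in controls and 5.06 to 9.24 in deleted libraries, with overlap and a log2 change of 0.31 against -0.37 for Foxl2. The 4 oviduct genes summed to 15.1 to 18.2 FPKM in controls and 10.1 to 23.6 in deleted uteri, mostly from Pax8, with Ovgp1 at most 6.42 FPKM and Foxj1, of ciliated cells, at most 0.396. The 7 genes of neurons and glia summed to 8.92 to 9.12 and 7.78 to 11.3 FPKM, with Snap25 at most 0.254 and Stmn2 at most 4.27.

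Among the main cells of the uterus, 7 of 8 epithelial genes were higher in deleted uteri. Their sum was 474 to 568 FPKM in controls and 585 to 659 in deleted libraries, with Epcam and Cdh1 at log2 changes of 0.26 and 0.07. Of the 8, Epcam, Cldn7 (0.49) and Wnt7a (0.66) were higher without overlap and Foxa2 (-0.49), a gene of the glands, lower without overlap, where 6.12% and 4.6% of all tested genes separated in these directions. All 8 stromal genes were lower, summing to 2489 to 2756 FPKM in controls and 2251 to 2492 in deleted libraries, with Pdgfra and Col1a1 at -0.46 and -0.49. These 2 changes were the largest of the list, whose median was -0.13, and 43.4% of all tested genes were lower. For Dcn, Hoxa10 and Hoxa11 only deleted replicate 2 lay below the control mean, at 646 against 1071, 116 against 141 and 65.8 against 79.6 FPKM. All 5 endothelial genes were lower, at 225 to 254 and 196 to 216 FPKM, with Pecam1 and Cdh5 at -0.05 and -0.32. Of these, Kdr, a VEGF receptor, was lower without overlap (-0.47, limma adjusted p 0.806), and no stromal, smooth muscle or leukocyte gene separated. Smooth muscle genes summed to 3105 to 3681 and 2921 to 3703 FPKM, with Myh11 and Acta2 at log2 changes of -0.06 and 0.00, and leukocyte genes to 22.6 to 39.3 and 23.5 to 33.8 FPKM, with Ptprc and Adgre1 at 0.25 and -0.25. None of these genes was called by limma, and their part in the member values was not tested.

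The tested genes whose pattern over the 6 libraries was most like that of Upk3b, other than members, were Adam19, Rnf20, Mfsd9, 1700030K09Rik and Hoxd3. Their Pearson's r with Upk3b on log2 values was 0.97, 0.96, 0.96, 0.95 and 0.94. They are the highest values over all tested genes in 6 libraries, with both groups pooled, and are given as a description. None of the 13 other mesothelial genes was among them.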

How the data were processed

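The deposited tables hold 1 FPKM value per gene and library (fragments scaled to transcript length and library size), made by the authors. HISAT2 2.2.1, Cufflinks 2.2.1 and build mm10 are named in the submitters' processing notes. The annotation and strandedness are not given in the sources used here. The unit was inferred from these tools and the values, since the headers name only the library.

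Groups were read from the sample titles. Values were analysed as log2(FPKM + 1), which understates changes of low genes. The 12640 genes with at least 1 FPKM in at least 3 libraries were tested with limma 3.58.1 in R 4.3.3 (eBayes with trend, group as only term), with two-sided p-values adjusted by Benjamini-Hochberg and a threshold of 0.05. Intervals are 95% intervals from that fit. The script was also run on simulated data with changes larger than that of any member. Its outcome is not given here and does not measure how well changes of the members' size are found. Python 3.11.15 with pandas 2.3.3 joined the tables. The members and gene lists were chosen with earlier results of these data known. Named genes were Nat10, all members, the 3 other mesothelial genes with the smallest p, the first 2 markers of each cell list and the 5 genes most correlated with Upk3b, while further list genes were named after their values were seen.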

Additional observations from a re-analysis of the deposited data

How the results depend on the processing

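The counts of called genes, the median of the tested markers and the log2 changes of Nat10 and of the 7 tested markers were recomputed under 15 alternatives: a pseudocount of 0.1, no filter, at least 1 FPKM in every library, 3 other scalings, no trend, array quality weights, the replicate block and leaving out each library. Groups without overlap were recounted by leaving out libraries, Muc16 was fitted without the filter, and the ratios, correlations and other gene lists were not recomputed. Count-based tools were not run, because the values are FPKM. The scalings moved the median of all genes by at most -0.037 on the log2 scale. Lrrn4, Msln, Upk3b and Nkain4 stayed lower in all 15, with log2 changes from -1 to -0.57, -0.65 to -0.39, -0.49 to -0.15 and -0.39 to -0.08. Directions turned when 1 library was left out for Upk1b (range -0.060 to 0.298), Wt1 (-0.038 to 0.10) and Gpm6a (-0.024 to 0.209): all 3 were below 0 without Nat10-deleted replicate 1, and Upk1b and Wt1 without floxed control replicate 1. With array quality weights these 3 were at 0.40, 0.19 and 0.35. With array quality weights 316 genes were called over all genes, 1 marker gene (Lrrn4) among them, and Nat10 was called at a log2 change of -1.09. The number of genes called when 1 library was left out ranged from 0 to 12 (12 without Nat10-deleted replicate 2), with no marker among them. The number at an unadjusted p under 0.05 was 630 in the main test, 3730 with weights, and 352 to 1726 without 1 library. The median change of the markers ranged from -0.31 (without Nat10-deleted replicate 1) to -0.08 (without Nat10-deleted replicate 2) over all 15. Same-numbered libraries of the groups did not deviate together (correlations of -0.34, -0.03 and 0.10, and 1 of 6 libraries correlating best with its own number). The replicate block called 0 genes and 0 markers, with 726 genes at an unadjusted p under 0.05. Read depth is unknown, so the counting error of low genes such as Muc16 cannot be given.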
